A study of Homo sapiens with 6 samples.

Results

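The 8 kidney development transcription factors PAX2, PAX8, SIX2, SALL1, LHX1, WT1, EYA1 and OSR1 were taken by name from a table of 57500 Ensembl genes, and each matched 1 identifier. They were measured in HEK293T, an established human embryonic kidney cell line that carries the large T antigen and is easily transfected. Libraries 1 to 3 of the PRMT1 group came from cells transfected with PRMT1 in pcDNA3 by means of PolyJet, and carry the genotype label PRMT1 OV. Libraries 1 to 3 of the control group are titled Mock, with the treatment Vector Control and the genotype WT, and the labels do not state whether these cells received an empty plasmid. All 6 libraries were made from polyA-selected RNA of cells of the same line, and nothing in the labels gives separate cultures, so p-values here reflect library-to-library spread alone, possibly technical spread. PRMT1, the main asymmetric arginine methyltransferase, averaged 73160 ± 11090 TPM in the PRMT1 libraries and 381 ± 14.7 TPM in the controls (SD, n = 3 each), 192-fold apart. TPM is a level per transcript length scaled to a total of 1000000 per library, and the recovered depth was 19874261 to 23163987 reads in the PRMT1 libraries and 18196814 to 20424807 in the controls.

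In the embryo, OSR1, PAX2, PAX8 and LHX1 mark the intermediate mesoderm, the tissue that gives rise to the kidney. In the metanephric mesenchyme, the EYA1 coactivator, SIX2 and related homeodomain proteins, SALL1 and WT1 act together with PAX2 to induce GDNF, which draws out the ureteric bud, and in the mouse SIX2 keeps the nephron progenitors self-renewing. PAX2, PAX8 and LHX1 are then used again in forming nephrons, while WT1 stays on in podocytes, the filtering cells of the glomerulus. HEK293T is not a progenitor culture, and it is known for carrying neuronal as well as kidney features.

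RefSeq promoter windows, 250 bases before to 50 bases after a start site on GRCh38.p14, were used here for 4 of the 8 genes. The window of SIX2 is shown because SIX2 was the most abundant member (chr2:45009403-45009702, minus strand). That of the upstream start of WT1 is shown because it also holds the annotated start of the antisense gene WT1-AS (chr11:32435490-32435789, minus strand). Capitals mark the GC box GGGCGG, on either strand.
SIX2: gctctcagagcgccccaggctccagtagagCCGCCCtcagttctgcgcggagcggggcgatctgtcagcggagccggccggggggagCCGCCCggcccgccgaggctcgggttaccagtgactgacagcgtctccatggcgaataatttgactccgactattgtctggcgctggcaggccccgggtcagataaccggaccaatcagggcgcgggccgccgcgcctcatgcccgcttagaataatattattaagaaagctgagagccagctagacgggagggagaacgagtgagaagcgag
WT1: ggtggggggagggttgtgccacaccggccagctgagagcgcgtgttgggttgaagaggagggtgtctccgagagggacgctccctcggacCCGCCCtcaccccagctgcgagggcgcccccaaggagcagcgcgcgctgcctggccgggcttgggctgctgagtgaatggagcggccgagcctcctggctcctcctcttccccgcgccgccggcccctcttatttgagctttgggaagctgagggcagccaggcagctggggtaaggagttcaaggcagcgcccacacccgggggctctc
The SIX2 window held 2 GC boxes and the WT1 window 1, and 45% of 35116 promoter windows of the same length held at least 1. Neither window held TATAAA (found in 11.5% of windows), the EGR and WT1 motif GCGGGGGCG (5.07%), the PAX core GTCACGC (2.52%) or the SIX2 motif TCAGGTTTC (0.362%), each searched on both strands, and no pair of these motifs overlapped in the 2 windows shown. None of the 5 motifs was found in the windows of PAX2 and PAX8 or at the other starts of WT1. GC content was 64% with 29 CpG pairs in the SIX2 window and 70% with 21 CpG pairs in the WT1 window, against medians of 58.7% and 14 CpG pairs over all windows.

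SIX2 held most of the transcript level of the group, and no member other than SIX2 and SALL1 averaged above 5.3 TPM in either condition. The 8 genes together summed to 87.4 to 94 TPM in the PRMT1 libraries and 92.9 to 94.6 TPM in the controls. SIX2 alone made up 68.2 to 72.2% of that sum in the PRMT1 libraries and 81.2 to 85% in the controls. Without SIX2 the other members summed to 25.8 to 29.9 TPM in the PRMT1 libraries and 14.2 to 17.8 TPM in the controls, so that these sums did not overlap. That sum leaves out the only member called lower in TPM as deposited. Much of its gap was SALL1, with means of 12.5 TPM in the PRMT1 libraries and 5.85 TPM in the controls. Of all tested genes, 49.8% lay wholly higher in the PRMT1 libraries.

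In the PRMT1 libraries the order of the mean levels was SIX2, SALL1, EYA1, PAX2, WT1, LHX1, OSR1 and PAX8. The values of the neighbours PAX2 and WT1 overlapped in that order, and those of all other neighbours did not. Among the controls the order was SIX2, SALL1, PAX2, EYA1, LHX1, WT1, OSR1 and PAX8. Here the values of EYA1 and LHX1 overlapped, as did those of OSR1 and PAX8. Among the 15341 genes tested, which reached 1 TPM in 3 or more of the 6 libraries, the mean of SIX2 exceeded that of 85.8% in the PRMT1 libraries and 88.8% in the controls. The means of SALL1 exceeded 52.6% in the PRMT1 libraries and 43.5% in the controls, and those of EYA1, PAX2, WT1 and LHX1 exceeded 14.3 to 32.8% in the PRMT1 libraries and 13.1 to 35.1% in the controls. OSR1 and PAX8 did not reach the level filter.

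**Figure D1:**
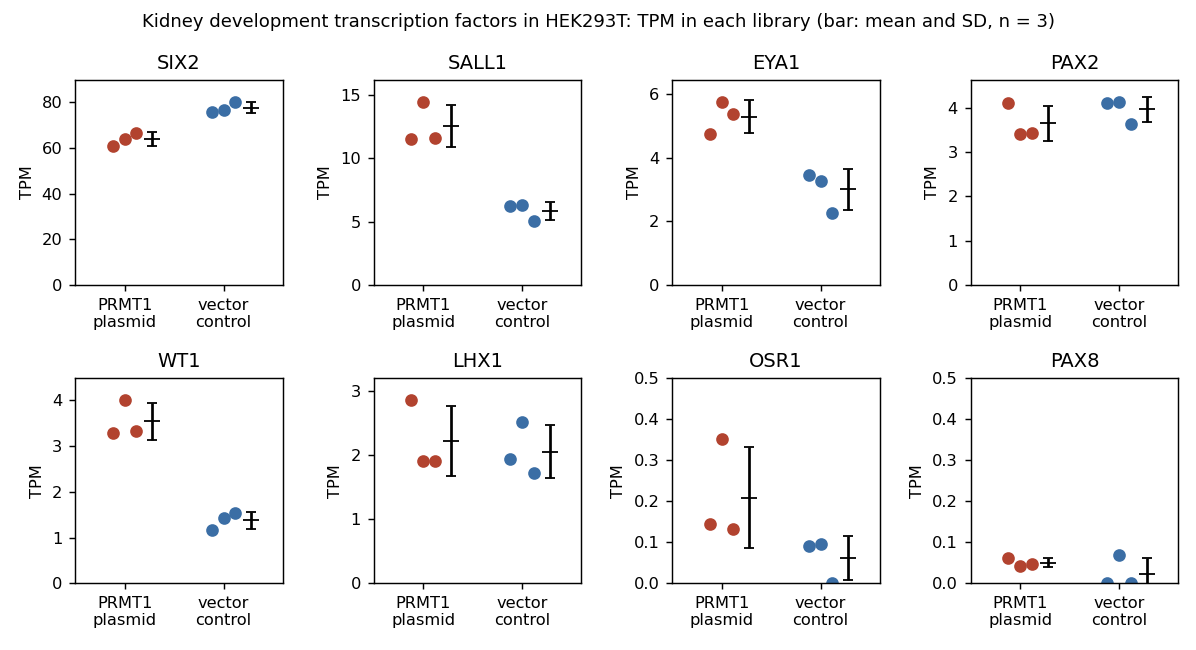
TPM of each of the 8 genes (vertical axis, from 0, with its own scale in each panel) in the 3 PRMT1 libraries on the left and the 3 vector control libraries on the right of each panel. Points are libraries and the bar beside them is the mean with its SD. SALL1, EYA1 and WT1 lie higher in every PRMT1 library than in any control, SIX2 lies lower, PAX2 and LHX1 overlap, and OSR1 and PAX8 reach at most 0.351 TPM.

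Of the 6 members tested, SALL1, WT1 and EYA1 rose, SIX2 fell, and PAX2 and LHX1 did not pass in TPM as deposited. Of all tested genes, 40.3% were called higher and 8.64% lower (limma on log2(TPM + 1), Benjamini-Hochberg adjusted p under 0.05). The values of the groups did not overlap for 3 higher and 1 lower of the tested members, where 49.8% of all tested genes lay wholly higher and 11.6% wholly lower. With 40.3% of genes called higher, 3 members called higher of 6 is no result about the group as such. The median log2 fold change was 0.37 over the 6 members and 0.30 over all tested genes. Median-of-ratios scaling took the median of all genes to -0.01, with 22.5% called higher and 25.5% lower, and under it 2 members were higher and 2 lower. Quantile normalization (20.3% of genes higher, 19.4% lower) also gave 2 and 2, and a correction of each library for GC content (23.7% higher, 25.4% lower) gave 2 and 1. Along the first principal component of the 6 libraries, which held 69.2% of the variance, PRMT1 library 2 and control 3 lay farther out than the others of their group. Without both, SALL1 (0.79), WT1 (0.91), EYA1 (0.47) and SIX2 (-0.26) still passed, with limma adjusted p of 0.00146, 0.00683, 0.0243 and 0.0173. In a bulk sample, fewer cells that express a gene and less RNA per cell cannot be told apart, and the share of transfected cells is not given in the labels.

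SIX2, the homeodomain factor of nephron progenitors (ENSG00000170577, chromosome 2, 45005161 to 45009430, minus strand, GRCh38 with GENCODE 29), had 60.7, 64.1 and 66.8 TPM in the PRMT1 libraries 1 to 3, against 75.9, 76.8 and 80.3 TPM in controls 1 to 3. All PRMT1 libraries lay below all controls, and the values rest on 840 to 911 recovered reads per PRMT1 library and 1009 to 1048 per control. The mean was 63.9 ± 3.05 TPM in the PRMT1 libraries and 77.6 ± 2.3 TPM in the controls (SD, n = 3 each). The log2 fold change was -0.28 (standard error 0.07, limma adjusted p = 0.0143), and an exact two-sided permutation test gave p = 0.1, the smallest that 3 against 3 values allow. Measured from the median change over all genes tested, 0.30, it was -0.58. After median-of-ratios scaling it was -0.65 (limma adjusted p = 0.00151). SIX2 had a GC content of 61.9%, in the top GC decile, whose genes had a median of 0.04. Its GC-corrected change was -0.40 (standard error 0.07, limma adjusted p = 0.00283). By mean level SIX2 lay in decile 9 of the tested genes, where the median was 0.11. The median was 0.47 in level decile 4 and -0.12 in level decile 10. The call was lost without PRMT1 replicate 1 (-0.24, limma adjusted p = 0.0692), and with PRMT1 left out of the table and the rest rescaled (-0.17, limma adjusted p = 0.0794). Over all alternatives its log2 fold change lay between -0.65 and -0.17, and its adjusted p between 0.000362 and 0.0794.

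EYA1, a phosphatase and coactivator that binds SIX2 and its relatives and has no DNA-binding domain of its own (ENSG00000104313, chromosome 8, 71197433 to 71592025, minus strand), had 4.73, 5.76 and 5.39 TPM in the PRMT1 libraries, against 3.46, 3.28 and 2.28 TPM in the controls. The groups did not overlap, and control 3 was the lowest library. EYA1 averaged 5.3 ± 0.52 TPM in the PRMT1 libraries and 3 ± 0.64 TPM in the controls (SD, n = 3 each), and the fitted log2 difference was 0.66 (standard error 0.16, limma adjusted p = 0.0108). The call was lost after median-of-ratios scaling (0.36, limma adjusted p = 0.0516), quantile normalization (0.21, limma adjusted p = 0.233) and GC correction (0.25, limma adjusted p = 0.109). Of the members, EYA1 had the transcript of lowest GC content, 43.3%, in a GC decile whose genes had a median log2 fold change of 0.41. EYA1 reads could be recovered only roughly, because its TPM did not fall on whole reads with the exonic length of GENCODE 29. Within a library the log2 ratio of SIX2 to EYA1 was 3.43, 3.27 and 3.41 in the PRMT1 libraries, against 4.11, 4.18 and 4.63 in the controls. The ratio was lower in every PRMT1 library, by a difference of -0.94 between the means (exact two-sided permutation p = 0.1, the smallest possible). This follows from the values of the 2 genes, since SIX2 was lower and EYA1 higher in every PRMT1 library, and it adds no separate support. The 2 genes also differ in GC content, 61.9% for SIX2 and 43.3% for EYA1, and their GC-corrected changes were -0.40 and 0.25.

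SALL1, a zinc finger factor that recruits the NuRD corepressor complex and is mutated in Townes-Brocks syndrome (ENSG00000103449, chromosome 16, 51135975 to 51151367, minus strand), had 11.5, 14.4 and 11.6 TPM in the PRMT1 libraries, against 6.21, 6.31 and 5.04 TPM in the controls. Every PRMT1 library lay above every control, and PRMT1 library 2 stood highest. In recovered reads these are 373 to 527 per PRMT1 library and 167 to 220 per control. The means of 12.5 ± 1.67 TPM in the PRMT1 libraries and 5.85 ± 0.71 TPM in the controls (SD, n = 3 each) differ 2.14-fold, with a log2 fold change of 0.98 (standard error 0.13, limma adjusted p = 0.00107). SALL1 stayed past the threshold under all 19 alternatives, with log2 fold changes of 0.53 to 1.08 and adjusted p of 2.09e-05 to 0.00476. Its GC content was 50.1%, in a decile with a median of 0.31, and its GC-corrected change was 0.66 (standard error 0.09, limma adjusted p = 0.00108).

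WT1, the zinc finger factor of the Wilms tumour locus (ENSG00000184937, chromosome 11, 32387775 to 32435630, minus strand), had 3.27, 4 and 3.32 TPM in the PRMT1 libraries, against 1.17, 1.43 and 1.53 TPM in the controls. The groups lay far apart relative to the spread within them, although the counts were small, with 78 to 106 reads per PRMT1 library and 30 to 37 per control. The mean was 3.53 ± 0.4 TPM in the PRMT1 libraries and 1.38 ± 0.19 TPM in the controls (SD, n = 3 each), 2.57-fold apart. On the log2(TPM + 1) scale, which understates the change of low genes, the difference was 0.93 (standard error 0.15, limma adjusted p = 0.0019), and with a pseudocount of 0.1 TPM it was 1.30. WT1 held its call under all 18 alternatives in which it was tested, with adjusted p of 4.73e-05 to 0.0207. WT1-AS, on the opposite strand (chromosome 11, 32435518 to 32458769), had 0.193, 0.112 and 0.158 TPM in the PRMT1 libraries, against 0.23, 0.272 and 0.368 TPM in the controls. That is 4 to 7 reads per PRMT1 library and 8 to 12 per control, all PRMT1 libraries below all controls. The strand setting of the counting is not given in the sources used here, so reads of WT1 and WT1-AS in their shared stretch cannot be told apart.

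PAX2, the paired-box factor needed for the ureteric bud and the nephron (ENSG00000075891, chromosome 10, 100735603 to 100829941, plus strand), had 4.12, 3.4 and 3.43 TPM in the PRMT1 libraries, against 4.12, 4.14 and 3.64 TPM in the controls. The groups overlapped. Its log2 fold change was -0.10 (standard error 0.13, limma adjusted p = 0.56), with an interval of -0.40 to 0.20 at 95% confidence. PAX2 was past the threshold as lower after median-of-ratios scaling (-0.40, limma adjusted p = 0.0311) and quantile normalization (-0.55, limma adjusted p = 0.00978), but not after GC correction (-0.18, limma adjusted p = 0.182). PAX2 had the highest GC content of the members, 63.3%, in the top GC decile, whose genes had a median of 0.04.

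PAX8, the close paralog that overlaps PAX2 in function in the mouse kidney (ENSG00000125618, chromosome 2, 113215997 to 113278950, minus strand), was at the counting limit. It had 0.062, 0.0419 and 0.0474 TPM in the PRMT1 libraries, against 0, 0.068 and 0 TPM in the controls. These are 2 to 3 reads per PRMT1 library and 0 to 3 per control, where 3 reads correspond to 0.062 to 0.0711 TPM in the PRMT1 libraries and 0.0648 to 0.0692 TPM in the controls. A difference was not detectable at this depth. Its antisense neighbour PAX8-AS1 held 2 to 6 reads per PRMT1 library and 0 to 2 per control. Such limits cover counting error only.

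LHX1, a LIM homeodomain factor of the early nephric duct (ENSG00000273706, chromosome 17, 36936785 to 36944612, plus strand), had 2.85, 1.91 and 1.9 TPM in the PRMT1 libraries, against 1.93, 2.51 and 1.71 TPM in the controls. PRMT1 library 1 was the highest of all 6 and the groups overlapped. The log2 fold change was 0.07 (standard error 0.18, limma adjusted p = 0.76), with a 95% interval of -0.35 to 0.50, and -0.18 after median-of-ratios scaling (limma adjusted p = 0.431). Its divergent noncoding neighbour LHX1-DT starts 124 bases away on the other strand. LHX1-DT had 5.05, 4.21 and 4.82 TPM in the PRMT1 libraries, against 7.66, 5.87 and 7.25 TPM in the controls. All PRMT1 libraries lay below all controls, with a log2 fold change of -0.47 (standard error 0.13, limma adjusted p = 0.0213). That call was lost without PRMT1 replicate 2 (limma adjusted p = 0.0565) and without vector control replicate 1 or 3 (limma adjusted p = 0.0813 and 0.0507). Whether LHX1 and LHX1-DT differ in their change was not tested. Another 4 annotated neighbours, AC093702.1 near SIX2, AC009166.1 in SALL1, AC243773.1 in LHX1 and RF02204 near WT1, held at most 13 reads in a PRMT1 library and 9 in a control.

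OSR1, the odd-skipped zinc finger factor of the earliest kidney field (ENSG00000143867, chromosome 2, 19351485 to 19358653, minus strand), had 0.144, 0.351 and 0.132 TPM in the PRMT1 libraries, against 0.0902, 0.0948 and 0 TPM in the controls. The PRMT1 libraries held 5, 12 and 4 reads and the controls 3, 3 and 0, so every PRMT1 library lay above every control, but the controls were at or under the limit of 3 reads. An exact two-sided permutation test gave p = 0.1, the smallest possible. Without the level filter, the 2 genes could be fitted, and neither passed (OSR1 and PAX8 limma adjusted p = 0.237 and 0.634).

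**Figure D2:**
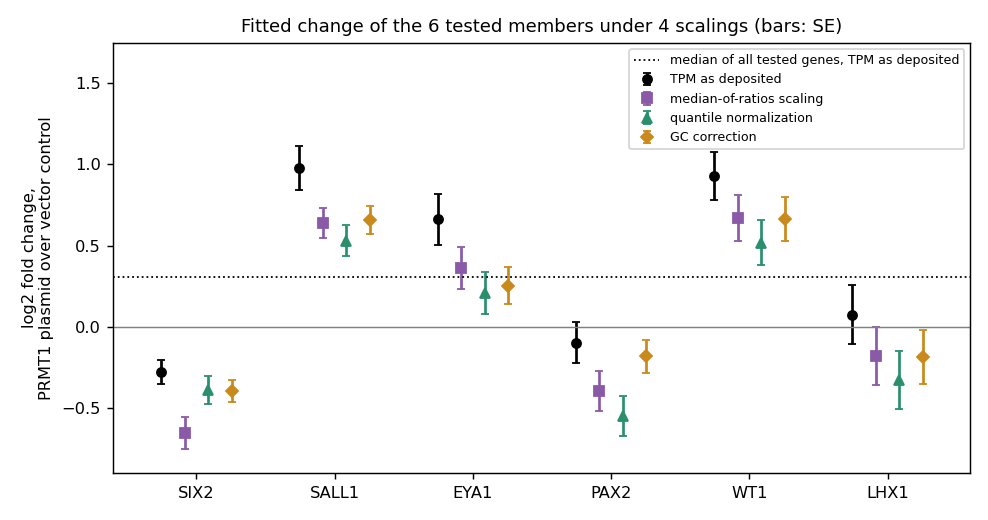
Log2 fold change of PRMT1 libraries over controls (vertical axis) for the 6 tested members (horizontal axis), in TPM as deposited and under 3 other scalings. Points are fitted values, bars are SE, and the dotted line is the median of all tested genes in TPM as deposited, 0.30. SALL1 and WT1 lie above 0 and SIX2 below 0 under all 4, while LHX1 changes sign.

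**Figure D3:**
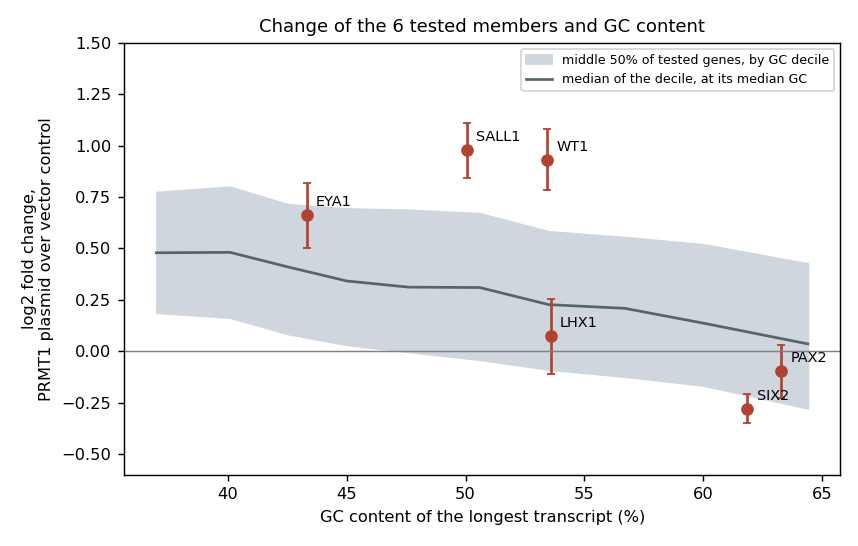
Log2 fold change of PRMT1 libraries over controls (vertical axis) against the GC content of the longest transcript (horizontal axis, %) for the 6 tested members, with SE bars, over the median and the middle 50% of all tested genes by GC decile. The decile medians run from 0.48 at the lowest GC content to 0.04 at the highest. SALL1 and WT1 lie above the middle 50% of their deciles, and SIX2 lies at the lower edge of its own.

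The genes with the most similar profile over the 6 libraries, by the root-mean-square difference of log2 values centred per gene among 9089 protein-coding genes, were SIN3A and OMA1 for SALL1 (0.023 and 0.029) and TRIP10 and CUEDC2 for SIX2 (0.025 and 0.026). PUS1 and ZNF280C came nearest to WT1 (0.04 and 0.047), KDM2A and EXOC6B to EYA1 (0.034 and 0.037), ITGB5 and MCRIP1 to PAX2 (0.038 and 0.042), and PLEKHA4 and GABRD to LHX1 (0.045 and 0.07). SIN3A had a mean of 24.2 TPM in the PRMT1 libraries and 11.8 TPM in the controls.

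Of 26 paralogs, 16 were tested, 10 rose and 1 fell, and after median-of-ratios scaling 6 were higher and 2 lower. Their median log2 fold change was 0.52, against 0.30 over all tested genes. Of all tested genes, 40.3% were higher and 8.64% lower, and the counts in this and the following gene lists stand beside those shares. Of the remainder, 9 stayed below 1 TPM in every library, and PAX4, SIX6 and LHX5 among them were listed at 0 in all 6. PAX7, a muscle and neural crest factor, was not tested and averaged 1.14 ± 0.15 TPM in the PRMT1 libraries and 0.56 ± 0.04 TPM in the controls (SD, n = 3 each).

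Among relatives of SIX2, SIX5 rose by 0.52 (limma adjusted p = 0.016). Its call was lost without PRMT1 replicate 1 or vector control replicate 2 (limma adjusted p = 0.0651 and 0.0517) and after median-of-ratios scaling (0.20). SIX4 had a value of 0.44 and did not pass (limma adjusted p = 0.0568), though it did with the replicate number as a block (limma adjusted p = 0.0324). Of the EYA coactivators, EYA3 rose by 0.88, EYA2 by 0.71 and EYA4 by 0.92 (SE 0.11 to 0.17, limma adjusted p at most 0.00349), and all of these also passed after median-of-ratios scaling. EYA3 was the most abundant, at 38.8 ± 2.84 TPM in the PRMT1 libraries and 20.8 ± 2.35 TPM in the controls (SD, n = 3 each), above EYA1 in both groups.

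PAX3, a factor of neural crest and muscle, was higher in level than PAX2 in both groups, with 10.4, 11.4 and 9.04 TPM in the PRMT1 libraries against 5.41, 5.25 and 5.56 TPM in the controls. It rose by 0.81 (standard error 0.12, limma adjusted p = 0.00126). The eye and brain factor PAX6 and PAX9 rose by 0.36 and 0.52 (limma adjusted p = 0.0472 and 0.0267), and neither passed after median-of-ratios scaling (0.03 and 0.25). Each of these calls was lost without PRMT1 replicate 2 or 3 or any 1 of the 3 controls (limma adjusted p of 0.0633 to 0.116 for PAX6 and 0.0525 to 0.0759 for PAX9), and PAX6 also missed with the replicate number as a block (limma adjusted p = 0.0661). SALL2 rose by 0.79 (limma adjusted p = 0.00584), and SALL3 had a value of 0.06 (limma adjusted p = 0.767), which was -0.22 after scaling. Of the LIM factors, LHX4 rose by 0.73 (limma adjusted p = 0.0135), a call lost after scaling (0.46, limma adjusted p = 0.0512) and without PRMT1 replicate 2 and vector control replicate 3 together (limma adjusted p = 0.0706). LHX2, LHX6 and LHX8 stood at -0.07, 0.13 and 0.25 without passing, and all were below 0 after scaling, LHX2 past the threshold (-0.41, limma adjusted p = 0.00775).

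OSR2, the paralog of OSR1, was the paralog that fell. It had 7.1, 6.14 and 7.84 TPM in the PRMT1 libraries, against 9.16, 10.6 and 9.96 TPM in the controls, with no overlap. The log2 fold change was -0.45 (standard error 0.12, limma adjusted p = 0.0175), and -0.78 after scaling. Without PRMT1 replicate 1 or vector control replicate 2 the call was lost (limma adjusted p = 0.0511 and 0.0603).

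**Figure D4:**
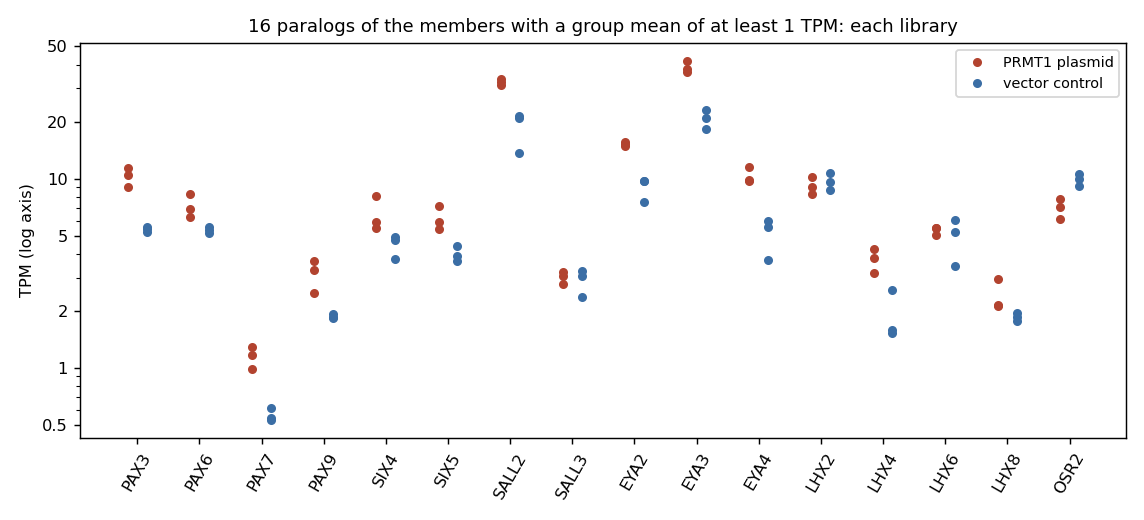
TPM of 16 paralogs of the members with a group mean of at least 1 TPM (log axis), with each library as a point, PRMT1 libraries on the left and controls on the right of each gene. All except SALL3, LHX2, LHX6 and OSR2 are higher in every PRMT1 library than in any control, and OSR2 is lower. Of all tested genes, 49.8% lay wholly higher and 11.6% wholly lower.

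Among 15 other factors of nephron progenitors, 13 were tested, of which 8 rose and 1 fell (SIX4 is in this list as well as among the paralogs), and 4 were higher and 3 lower after median-of-ratios scaling. Their median log2 fold change was 0.43. The list holds the 3 HOX11 paralogs, which are needed together for kidney induction in the mouse. HOXA11 had 41.9, 46.5 and 42.1 TPM in the PRMT1 libraries, against 27.8, 25.2 and 27.1 TPM in the controls, and rose by 0.68 (standard error 0.08, limma adjusted p = 0.000696). HOXD11 had 31.1, 27.5 and 23.6 TPM in the PRMT1 libraries, against 46.5, 46.7 and 51.5 TPM in the controls, and fell by 0.80 (limma adjusted p = 0.00117). Neither gene's groups overlapped, and both calls held after scaling (0.31 and -1.17). HOXC11, chosen after its values were seen, had 14.2, 12.8 and 14.3 TPM in the PRMT1 libraries, against 9.98, 9.15 and 11.2 TPM in the controls, and rose by 0.41 (limma adjusted p = 0.0163). That call was lost after scaling (0.06), and without PRMT1 replicate 1 or 3 or vector control replicate 1 or 2 (limma adjusted p = 0.0538 to 0.0629). TRPS1, a GATA-type repressor of the renal mesenchyme, rose by 0.88 (limma adjusted p = 0.00237). CITED1, another marker of mouse nephron progenitors, was chosen after its values were seen and had 40 ± 0.93 TPM in the PRMT1 libraries and 43.9 ± 2.02 TPM in the controls (SD, n = 3 each), and it did not pass (-0.13, limma adjusted p = 0.184). All PRMT1 libraries lay below all controls, and CITED1 was past the threshold as lower after median-of-ratios scaling (-0.50, limma adjusted p = 0.00425), quantile normalization (-0.33, limma adjusted p = 0.0176), GC correction (limma adjusted p = 0.0258) and with array weights (limma adjusted p = 0.034).

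Factors of later nephron segments were partly silent. Of 20, 11 were tested, 6 rose and 0 fell, and 2 were higher and 1 lower after scaling, with IRX1 and IRX2 listed at 0 in all 6 libraries. GATA3, a factor of the collecting system, averaged 13.3 ± 1.3 TPM in the PRMT1 libraries and 7.11 ± 0.33 TPM in the controls (SD, n = 3 each) and rose by 0.81 (limma adjusted p = 0.000969). LMX1B, a podocyte factor, rose by 0.64 and MECOM by 0.84 (limma adjusted p = 0.0026 and 0.00544), LMX1B not after scaling (0.30, limma adjusted p = 0.0681). TFAP2A rose by 0.34 (limma adjusted p = 0.018), but was at -0.02 after scaling and missed the threshold without PRMT1 replicate 3 or vector control replicate 1 or 2 (limma adjusted p = 0.0574 to 0.0647). After quantile normalization 0 genes of this list were higher and 0 lower, so the calls of GATA3 and MECOM were lost there too. GC correction gave 4 higher and 0 lower.

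Among the signals that these factors send and receive, most ligands did not pass. Of 18 ligands, 13 were tested, 3 rose and 1 fell, and 1 was higher and 4 lower after scaling. WNT11, a signal of the ureteric tip, rose by 0.59, LIF by 0.71 and WNT5A by 0.55 (limma adjusted p = 0.00223, 0.00889 and 0.0264). WNT11 and WNT5A did not pass after scaling (0.25 and 0.26), and WNT5A missed without PRMT1 replicate 2 or vector control replicate 3 (limma adjusted p = 0.0712 and 0.0649). LIF had 1.89, 1.92 and 1.99 TPM in the PRMT1 libraries, against 0.644, 0.719 and 1.03 TPM in the controls. It met the level filter through the group where it was high, so its p-value is description only. After quantile normalization 0 ligands were higher and 3 lower, and GC correction gave 2 and 3. FGF8, which keeps nascent nephrons alive in the mouse, fell by 0.85 (limma adjusted p = 0.00885), at 0.67 ± 0.27 TPM in the PRMT1 libraries and 2.01 ± 0.39 TPM in the controls (SD, n = 3 each). Only its control values reached 1 TPM, so FGF8 entered the test through the group where it was high, and its p-value is description only. The PRMT1 libraries held 7, 8 and 3 reads, near the limit of 3, and the controls 17, 14 and 20. GDNF, the signal downstream of these factors in the embryo, was chosen after its values were seen and was not tested, at 0.404 ± 0.17 TPM in the PRMT1 libraries and 0.272 ± 0.0093 TPM in the controls (SD, n = 3 each).

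Of 19 receptors and modulators, 17 were tested, 5 rose and 2 fell, against 3 higher and 9 lower after scaling. SLIT2, a repellent that limits the GDNF domain in the mouse, had 56.3, 66 and 58.1 TPM in the PRMT1 libraries, against 123, 128 and 108 TPM in the controls. It fell by 0.98 (standard error 0.09, limma adjusted p = 0.000273), with no overlap of the groups. The cell-surface proteoglycan gene GPC3 fell by 0.52 (limma adjusted p = 0.00576). BMPR1A, a BMP receptor, rose by 1.11 and NOTCH1 by 0.74 (limma adjusted p = 0.000598 and 0.00315), and both passed after scaling.

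All 22 cofactors of the members were tested. Of them 9 rose and 0 fell, a share of higher genes near the 40.3% of all tested genes, and 4 were higher and 7 lower after scaling. Their median was 0.18, below the 0.30 of all tested genes. PAXIP1, an adaptor that couples PAX2 to a histone methyltransferase complex, had 7.31, 8.7 and 6.53 TPM in the PRMT1 libraries, against 2.72, 3.11 and 2.97 TPM in the controls. It rose by 1.11 (standard error 0.14, limma adjusted p = 0.000668). The NuRD subunit genes GATAD2B and MTA2 rose by 0.72 and 0.45, and CTNNB1, the gene of beta-catenin, by 0.82 (limma adjusted p at most 0.00457), MTA2 not after scaling (0.07, limma adjusted p = 0.43). The other NuRD subunit genes of the list, GATAD2A, MTA1, CHD4, HDAC1, HDAC2, RBBP4 and RBBP7, did not pass. After median-of-ratios scaling all of these except HDAC2 and RBBP7 passed as lower, with CHD4 at -0.68. These lower calls depended on the scaling. Of the 22 cofactors, quantile normalization gave 7 higher and 1 lower, and GC correction 5 higher and 6 lower.

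Genes of podocytes or linked to WT1 were split. Of 18, 12 were tested, 3 rose and 3 fell, and 1 was higher and 6 lower after scaling, with NR0B1 listed at 0 throughout. AMH, the hormone gene that WT1 helps to switch on in the fetal testis, rose by 2.91 (standard error 0.08, limma adjusted p = 5.67e-06), at 46 ± 1.61 TPM in the PRMT1 libraries and 5.26 ± 0.12 TPM in the controls (SD, n = 3 each). A link between the changes of AMH and WT1 was not tested. VEGFA, CDKN1C and IGF2 fell by 1.21, 1.32 and 0.79 (limma adjusted p at most 0.00061). VEGFA had 9.25 ± 0.35 TPM in the PRMT1 libraries and 22.8 ± 2.6 TPM in the controls (SD, n = 3 each). The podocyte slit gene NPHS1, chosen after its values were seen, was not tested and had means of 0.0725 TPM in the PRMT1 libraries and 0.12 TPM in the controls.

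**Figure D5:**
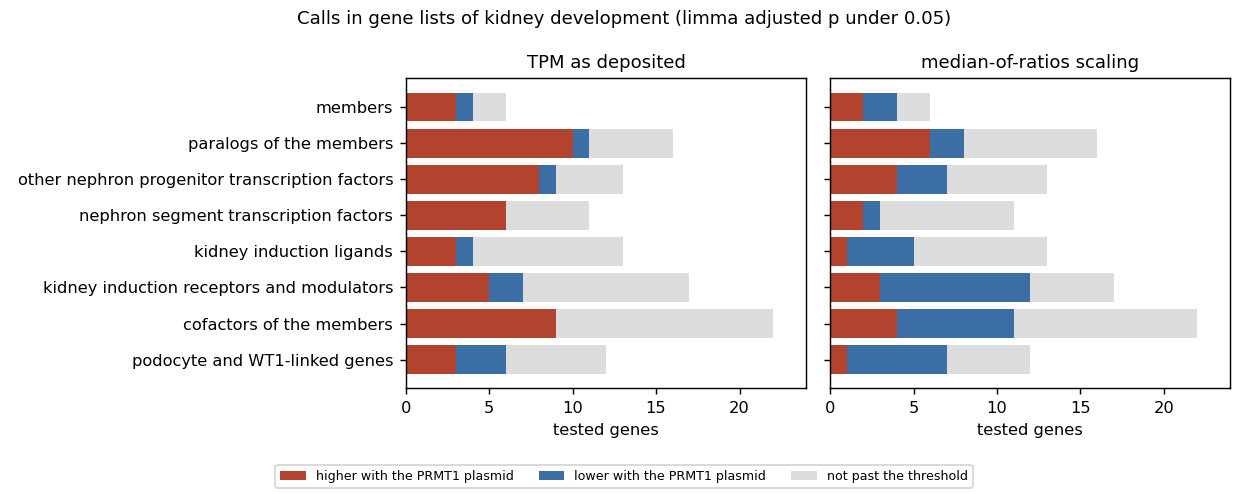
Number of tested genes (horizontal axis) called higher, called lower or not past the threshold in the 6 tested members and in 7 related gene lists, in TPM as deposited on the left and after median-of-ratios scaling on the right. Scaling adds lower calls in every list shown, and each keeps at least 1 higher call.

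The cells were also set against markers of kidney segments and of other cell types. Of 8 proximal tubule markers only LRP2 was tested, and the list summed to 6.68 to 6.89 TPM in the PRMT1 libraries and 4.5 to 6.61 TPM in the controls. The 8 distal nephron markers were below 1 TPM except GATA3, and the list summed to 12.1 to 14.4 TPM in the PRMT1 libraries and 7.19 to 7.67 TPM in the controls. UMOD and AQP2, which define the thick limb and the collecting duct, had at most 1 library above 0. Of 9 stromal markers, 3 were tested, with sums of 60 to 69.1 TPM in the PRMT1 libraries and 62.3 to 79.5 TPM in the controls. Of 10 neuronal markers, 8 were tested, 2 higher and 4 lower (0 and 4 after scaling), with sums of 548 to 616 TPM in the PRMT1 libraries and 825 to 910 TPM in the controls. The neurofilament genes NEFM (means 314 TPM in the PRMT1 libraries and 536 TPM in the controls) and NEFL (163 TPM in the PRMT1 libraries and 218 TPM in the controls) made up most of these sums. TUBB3 averaged 2.26 TPM in the PRMT1 libraries and 1.98 TPM in the controls, and SNAP25 and NEFH stayed below 1 TPM. The list headed epithelial, which also holds the mesenchymal markers VIM and CDH2, summed to 639 to 714 TPM in the PRMT1 libraries and 839 to 881 TPM in the controls, with KRT19 listed at 0 in the 3 controls. VIM held most of the sum, at 466 ± 45.2 TPM in the PRMT1 libraries and 652 ± 16.3 TPM in the controls (SD, n = 3 each), and it was the member called lower. The keratin gene KRT8 had 78.8 ± 3.83 TPM in the PRMT1 libraries and 79.8 ± 3.92 TPM in the controls (SD, n = 3 each), and KRT8, KRT18, CDH1 and EPCAM did not pass. After median-of-ratios scaling, KRT8 (-0.39) and KRT18 (-0.45) passed as lower. That scaling gave 3 lower genes in this list, while quantile normalization and GC correction gave 2 each. Of 6 adrenal and 8 blood and endothelial markers, 5 and 7 stayed below 1 TPM in every library, with sums of at most 1.51 and 3.46 TPM in the PRMT1 libraries and 0.689 and 2.68 TPM in the controls. The part of these shifts in the results on the members was not tested.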

How the data were processed

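PolyA-selected RNA of HEK293T cells was sequenced in 3 PRMT1 overexpression and 3 vector control libraries. The deposited values are TPM per Ensembl gene. Per the submitters' processing notes, the tools were Trimmomatic 0.36, STAR 2.5.2b, Subread 1.5.2 and featureCounts on GRCh38, with no roles stated. For the annotation, strand setting and TPM calculation, nothing is given in the sources used here. Symbols came from a table of gene names that held 56410 of the 57500 identifiers. Coordinates, exonic lengths and GC content came from GENCODE 29 (56898 identifiers), which may differ from the annotation behind the table.

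Multiplied by exonic length, low TPM values were near-exact multiples of a library's unit: of values under 50 reads, 95.5 to 95.7% were whole within 0.05, where chance gives 10%. Reads recovered in this way give depth only and no test. Libraries of a group differed by more than counting noise (chi-square per degree of freedom 2.7 to 23.2). Genes reaching 1 TPM in 3 libraries entered limma 3.58.1 (R 4.3.3; log2(TPM + 1), trend, no covariate), adjusted over all tested genes, and the fit was checked on artificial data.

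The members and gene lists were chosen with earlier results of these data known. The text names PRMT1, all members, annotated genes above 0 that overlap a member or start within 10 kb of its start, up to 4 called genes with the smallest p per list, paralogs with a group mean of at least 1 TPM, and per member the 2 most similar protein-coding profiles with a mean of at least 5 TPM. Some genes that this rule covers are not reported here, though the counts of the lists include them. Alternatives changed the pseudocount, the filter, the scaling, the variance model, the library weights, the replicate block, GC content and the libraries included. The ratio of PAX2 to PAX8 was not computed, PAX8 being at the counting limit.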

Additional observations from a re-analysis of the deposited data

How the results depend on the processing

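Counts of all tested genes and of members depended on the scaling. Higher genes numbered 7601 when PRMT1 was removed before rescaling and 7819 with array weights. They numbered 6190 in TPM as deposited, 3448 after median-of-ratios scaling, 3109 after quantile normalization and 3615 after GC correction. Lower genes numbered 1325 as deposited, then 3913, 2979 and 3878 under these, 880 when PRMT1 was removed before rescaling, 2838 with array weights, and 2115 without the 2 libraries that stand apart (PRMT1 replicate 2 and vector control replicate 3). With 1 library left out, higher genes ranged from 5082 to 5634 and lower genes from 935 to 1520. Members called higher were 3 as deposited, 2 after median-of-ratios scaling, quantile normalization and GC correction, and 1 with the filter of 5 TPM, which left fewer members tested. With 1 library left out they were 3 in each case, and members called lower were 0 to 1, with 0 without PRMT1 replicate 1. Lower members were 2 after median-of-ratios scaling and after quantile normalization and 0 with PRMT1 taken out. The difference of the SIX2 to EYA1 ratio was -0.63 with a pseudocount of 5 TPM, which compresses low genes, and -1.04 to -0.78 with 1 library left out.

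No value that changed sign passed the threshold under that alternative. LHX1 was at -0.18, -0.33 and -0.19 after median-of-ratios scaling, quantile normalization and GC correction, and ranged from -0.062 (without PRMT1 replicate 1) to 0.179 with 1 library left out (-0.007 without vector control replicate 3). SALL3 was at -0.22, -0.38 and -0.14 under the same 3, -0.034 with array weights, -0.044 (without vector control replicate 3) to 0.125 with 1 library left out, and -0.003 without the 2 libraries that stand apart. LHX6 was at -0.19, -0.33 and -0.12 under the same 3, -0.063 (without vector control replicate 3) to 0.266 with 1 library left out, and -0.076 without the 2 libraries. LHX8 was at -0.008, -0.15 and -0.11 under the same 3. PAX6 was at -0.12 and -0.10 after quantile normalization and GC correction, SIX4 at -0.025 and HOXC11 at -0.005 after quantile normalization, and TFAP2A at -0.016 and -0.013 after median-of-ratios scaling and quantile normalization. LHX2 was at 0.033 with PRMT1 taken out, and ranged from -0.139 to 0.001 (without PRMT1 replicate 3 or vector control replicate 1) with 1 library left out. The cause was not tested. Over the named genes and alternatives, 866 values kept direction and side of the threshold, 66 lost a call, 14 gained one and 28 changed sign.

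The replicate numbers gave no sign of pairing: deviations of same-numbered libraries correlated at -0.03, 0.06 and 0.02. With the replicate number as a block, 6275 genes were higher and 1314 lower, with 3 and 1 members, and among named genes SIX4 gained and PAX6 lost a call. The members at the counting limit, PAX8 and OSR1, are limited by depth.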
